A study of Mus musculus with 16 samples.

Results

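The epithelium of the mouse jejunum, the middle part of the small intestine, was compared between postnatal day 6 (P6), when pups live on milk, and P36, after weaning. The comparison used every library labelled as jejunum, 8 of the 16 RNA-sequencing libraries analysed here, with 4 from P6 mice and 4 from P36 mice. The other 8 libraries came from the ileum of the same mice and are used only to ask whether a change with age differed between the regions. All mice were wild type C57BL6/J and untreated, and each age had 2 females (mice 1 and 2) and 2 males (mice 3 and 4). Each mouse gave 1 jejunal library and the ages are different mice, so the comparison is unpaired and the replicate is the mouse. Epithelium was shaken off an opened segment after incubation in EDTA, so the material also holds the crypt cells, lymphocytes and other cells that come away with it. P6 pups were killed by decapitation and P36 mice with CO2, and age, diet and the method of killing cannot be told apart in this design.

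Before weaning the small intestine handles a diet of lactose, fat and intact milk protein. Neonatal enterocytes take up protein by endocytosis and digest it in lysosomes, and those of the jejunum carry maternal immunoglobulin G across the cell with the neonatal Fc receptor. Around weaning, rodent enterocytes are known to change from lactase to sucrase and other enzymes for plant carbohydrate, crypts gain Paneth cells, and the microbial community in the lumen grows.

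Total counts ran from 20362781 to 25947276 in the P6 libraries and from 18459953 to 23731398 in the P36 libraries, and 17916 of the 24421 genes in the files had a count in at least 1 of the 8. Values below are CPM, the counts of a gene relative to all reads counted on genes, scaled by the TMM factors of edgeR so that most genes have the same level on average. Expression of Epcam, a defining marker of epithelium, was between 1137 and 1582 CPM in all 8 libraries. The 8 epithelial markers, Epcam among them, were less even. They summed to between 5623 and 5828 CPM at P6 and between 12736 and 13949 CPM at P36. Markers of smooth muscle summed to at most 5.88 CPM in any library, those of endothelium to at most 9.41 CPM and those of erythrocytes to at most 1.32 CPM, with the globin genes at 0. Fibroblast markers summed to between 5.32 and 17.7 CPM at P6 and to 13.4, 17.2, 13.6 and 62.6 CPM in P36 mice 1 to 4. The title codes of the P6 samples fall into 2 kinds, shared by mice 1 and 3 and by mice 2 and 4, with a female and a male in each kind, and what they stand for is not given in the sources used here. Of 8339 autosomal genes with a mean of at least 10 CPM at P6, 131 separated mice 1 and 3 from mice 2 and 4 without overlap by more than 1 on the log2 scale, against 6 that separated the sexes in this way. The median SD of log2 CPM between the 4 mice of an age, over 8785 genes, was 0.128 at P6 and 0.120 at P36.

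Between P6 and P36 the jejunal epithelium changed the genes it uses for sugar, protein, fat, drugs and microbes together. Genes for sucrase, maltase and trehalase, antimicrobial lectins, Paneth cell defensins, cytochrome P450 enzymes and class II antigen presentation rose. Genes for the neonatal Fc receptor, lysosomal enzymes, gluconeogenesis, the iron exporter and fetal growth fell. Across the 13429 genes tested with edgeR's quasi-likelihood test, 1056 were called higher at P36 (7.86% of those tested) and 1153 were called higher at P6 (8.59%), a call being a Benjamini-Hochberg adjusted p below 0.05 with a log2 fold change beyond 2 in size. Rose and fell are written below only of called genes, and fold changes are P36 over P6. Counts of calls in each gene list below are to be read beside these shares of 7.86% and 8.59%. The test used 1 spread per gene, shared by the jejunal and ileal groups, so an SE or p-value also reflects the ileal libraries. The 4 libraries of one age all lay above the 4 of the other for 8574 genes (63.8%), so groups that do not overlap are common here and set no gene apart. Changes beyond 4 on the log2 scale were called for 354 genes in the direction of P36 and 447 in the direction of P6. Genes called higher at P36 held 17.0 ± 0.384% (SD, n = 4) of the counts of a P36 library and 1.30 ± 0.0981% of a P6 library, and those called higher at P6 held 22.4 ± 0.701% of a P6 library and 1.69 ± 0.0976% of a P36 library. In bulk libraries such as these, a change in the number of cells of a type and a change in the RNA made per cell cannot be told apart.

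**Figure D1:**
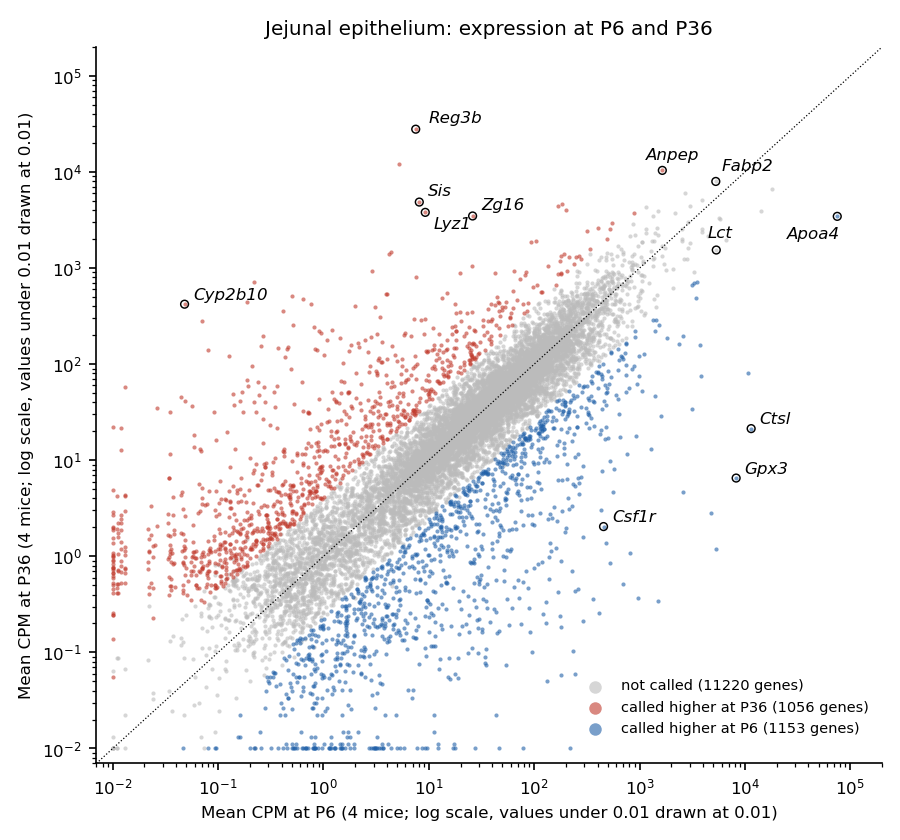
Mean CPM of each of the 13429 tested genes at P6 (horizontal axis) and P36 (vertical axis), both on log scales and each over 4 mice, with means under 0.01 drawn at 0.01. Red points are the 1056 genes called higher at P36, blue points the 1153 called higher at P6 and grey points the 11220 not called; the dotted line marks equal expression, and named genes such as Reg3b and Gpx3 lie far from it while Fabp2 lies near it.

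The most abundant transcripts were exchanged in part. On the TPM scale, which divides counts by gene length so that genes can be ranked, Apoa4, an apolipoprotein of chylomicrons, was first at P6 with 89598.6 ± 5186.7 TPM (SD, n = 4) and 20th at P36 with 3818 TPM. The antimicrobial lectin Reg3b was first at P36 with 67939 ± 5965.7 TPM and stood at 20.4 TPM at P6. Fcgrt, Ctsl and Gpx3, at ranks 3, 4 and 6 at P6, were at ranks 1743, 5459 and 8061 at P36. Apoa1, Fabp2 and Fabp1, lipid carriers of the enterocyte, were among the 8 most abundant genes at both ages. Fabp2, the intestinal fatty acid binding protein, was at 5566, 6002, 3916 and 5683 CPM in the P6 mice and 10188, 8130.4, 6461 and 7121 CPM in the P36 mice (log2 fold change 0.59, SE 0.59, edgeR adjusted p = 0.427). Crip1, a small LIM-domain protein, and the goblet cell lectin Zg16 were among the 8 highest only at P36.

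Genes for the enzymes that split sucrose, starch sugars and trehalose rose, and the lactase gene stayed highly expressed. Sis, which encodes sucrase-isomaltase at chr3:72888560-72966866 (mm10), was at 9.42, 7.99, 9.09 and 5.99 CPM in the P6 mice and at 4742, 5722, 4578 and 4422 CPM in the P36 mice. Every P36 library lay far above every P6 library, and Sis rose with age (log2 fold change 9.23, SE 0.56, edgeR adjusted p = 1.74e-09). Mgam, the maltase-glucoamylase gene, was already expressed at P6, with 198, 191, 226 and 193 CPM, and reached 4104, 4612, 4001 and 3517 CPM at P36 (log2 fold change 4.33, SE 0.26, edgeR adjusted p = 1.45e-09). The trehalase gene Treh moved from 2.36, 3.75, 2.68 and 3.495 CPM to 554, 380.4, 284 and 344 CPM (log2 fold change 6.99, SE 0.81, edgeR adjusted p = 2.44e-06). P36 mouse 1 was the highest for Treh, and the 4 mice of each age stayed within a range much smaller than the distance between the ages. Lct encodes lactase and lies at chr1:128284764-128328318. Its expression was 5736, 5108, 5948 and 4598 CPM at P6 and 1720.0, 1438, 1497 and 1512 CPM at P36. The groups did not overlap, but the change missed both limits of a call (log2 fold change -1.79, SE 0.78, edgeR adjusted p = 0.0665). The jejunal means were 5348 ± 614 and 1542 ± 123 CPM. This SE rests on a spread shared with the ileum, where Lct was at 697 ± 385 CPM at P6 and 16.1 ± 16.0 CPM at P36. Lct was above 1000 CPM in each weaned mouse. In this list 3 of the 4 genes were called higher at P36 and none higher at P6, and the median log2 fold change was 5.66 beside a median of -0.011 over all tested genes.

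Genes of sugar carriers were called in both directions. Of 20 tested genes for sugar transport and fructose breakdown, 6 were called higher at P36 and 2 higher at P6. The shares of all genes were 7.86% and 8.59%. Slc5a1, the sodium-glucose cotransporter SGLT1, was at 844, 939, 796 and 974 CPM at P6 and 3988, 4024, 3568 and 3378 CPM at P36, just beyond the fold change minimum (log2 fold change 2.07, SE 0.32, edgeR adjusted p = 5.43e-05), and the log2 fold change of Slc5a1 was 1.96 without P6 mice 1 and 3, where the call was lost, and 2.19 without P6 mice 2 and 4. The fructose transporter gene Slc2a5 was at 38.2, 52.5, 35.8 and 60.5 CPM and 236, 335, 186 and 204 CPM (log2 fold change 2.36, SE 0.37, edgeR adjusted p = 6.18e-05). Khk, which starts fructose breakdown, rose with it (log2 fold change 2.44, SE 0.46, edgeR adjusted p = 0.000374). Slc2a2, the basolateral glucose transporter, had nearly equal means of 325 ± 19.1 and 324 ± 32.0 CPM (log2 fold change -0.0040, SE 0.44, edgeR adjusted p = 0.995). The glucose sensor family members Slc5a4a and Slc5a4b rose by 9.18 and 6.07 on the log2 scale, although their similar sequences leave the split of reads between them uncertain. Galk1, which phosphorylates the galactose released from lactose, fell from 237 ± 15.5 to 18.9 ± 2.64 CPM (log2 fold change -3.65, SE 0.64, edgeR adjusted p = 0.000187).

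The P6 jejunum also expressed the enzymes that make glucose, and these fell. Pck1, the phosphoenolpyruvate carboxykinase of gluconeogenesis, was at 2877, 4722, 2995 and 4313 CPM in the P6 mice and 236, 151, 84.7 and 160.5 CPM in the P36 mice (log2 fold change -4.56, SE 0.54, edgeR adjusted p = 2.98e-06). Fbp1, fructose-1,6-bisphosphatase, was at 966, 998, 798 and 914 CPM and 13.3, 25.1, 18.2 and 14.4 CPM (log2 fold change -5.69, SE 0.26, edgeR adjusted p = 9.09e-11). G6pc, which releases free glucose, fell as well, from 334 ± 76.3 to 42.7 ± 33.3 CPM. All 3 genes of the path were lower in each P36 mouse than in any P6 mouse. In the other direction, the glycolytic genes Hk2, Hk1 and Pkm rose, by 4.15, 3.04 and 2.60 on the log2 scale. Of 27 tested genes of glycolysis and gluconeogenesis, 3 were called higher at P36 and 4 higher at P6. The shares of all genes were 7.86% and 8.59%. The remaining gene that fell was Pdk4, a kinase that restrains pyruvate oxidation (log2 fold change -4.02, SE 0.79, edgeR adjusted p = 0.000503).

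**Figure D2:**
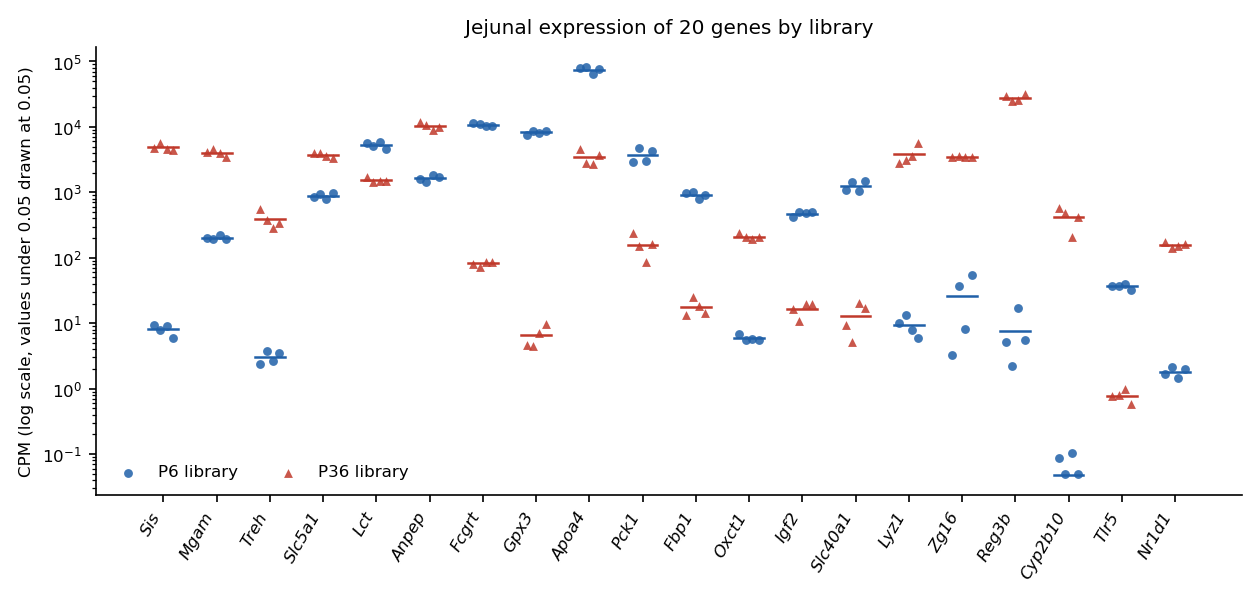
CPM (vertical axis, log scale, values under 0.05 drawn at 0.05) of 20 genes in each jejunal library, with P6 libraries as blue circles, P36 libraries as red triangles and the mean of each age as a bar. Sis moves from a mean of 8.12 CPM to 4866 CPM and Gpx3 from 8255 CPM to 6.53 CPM, while the 4 libraries of an age mostly lie close together; Zg16 at P6 is spread more widely.

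Among brush border peptidases 9 of 22 tested genes were called higher at P36 and 4 higher at P6. Anpep, aminopeptidase N, was at 1582, 1427, 1841 and 1728 CPM at P6 and 12055, 10671, 9062 and 9797 CPM at P36 (log2 fold change 2.66, SE 0.38, edgeR adjusted p = 2.50e-05). Enpep and Dpp4, which trim acidic and proline-containing ends of peptides, rose by 2.27 and 2.21 on the log2 scale. Ggt1 and Dpep1, which break down glutathione, rose by 5.52 and 7.09. Among those that fell was Dpp7, a peptidase of intracellular vesicles (log2 fold change -4.03, SE 0.29, edgeR adjusted p = 1.43e-08). Mep1a, a meprin subunit, also fell, but its change of -2.005 was so near the minimum that leaving out P36 mouse 2, P36 mouse 3 or P6 mouse 2 each ended its call. Peptides enter the enterocyte through Slc15a1 (PEPT1), which was at 112, 155, 119.9 and 153 CPM in the P6 mice and 1448, 1092, 806 and 829 CPM in the P36 mice (log2 fold change 2.95, SE 0.57, edgeR adjusted p = 0.000455). P36 mouse values for Slc15a1 all lay above those at P6. The list of amino acid and peptide transporters, which holds Slc15a1 and the sulphate carrier Slc13a1, had 7 of 25 tested genes called higher at P36 and 2 higher at P6, beside 7.86% and 8.59% of all genes. Slc1a1, a glutamate carrier, rose from 2.77 ± 0.239 to 95.2 ± 8.47 CPM. Slc38a1 and Slc38a3, glutamine carriers, fell, with log2 fold changes of -2.88 and -8.26, and the log2 fold change of Slc38a3 was -6.27 without P6 mice 1 and 3 and -9.07 without P6 mice 2 and 4. Slc6a19 and Slc7a9, which take up neutral and dibasic amino acids, had log2 fold changes of 0.46 (edgeR adjusted p = 0.447) and -0.27 (edgeR adjusted p = 0.332).

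Genes of arginine metabolism also changed in both directions, with 3 of 17 tested genes called higher at P36 and 4 higher at P6. Arg2, the mitochondrial arginase that breaks arginine down, was at 0.131, 0, 0.473 and 0.144 CPM in the P6 mice and 517, 420.3, 378 and 469.6 CPM in the P36 mice, on only 15 counts over the P6 libraries (log2 fold change 11.24, SE 0.74, edgeR adjusted p = 4.33e-09). Nos2, the inducible nitric oxide synthase, which uses arginine, was at 0.131, 0.0892, 0.420 and 0.192 CPM and 44.2, 38.5, 243 and 56.4 CPM (log2 fold change 8.85, SE 0.89, edgeR adjusted p = 5.51e-07). Both genes were near the detection limit in each pup and well expressed in each weaned mouse. Aldh18a1, the first enzyme of proline and citrulline synthesis from glutamate, fell from 1403 ± 51.6 to 224 ± 28.2 CPM (log2 fold change -2.65, SE 0.20, edgeR adjusted p = 2.00e-08). Gatm, which makes the creatine precursor guanidinoacetate from arginine, fell from 83.8 ± 59.95 to 0.697 ± 0.428 CPM (log2 fold change -6.93, SE 0.71, edgeR adjusted p = 6.50e-07), and Asl, argininosuccinate lyase, fell by 2.87 on the log2 scale.

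The neonatal Fc receptor and 4 other genes of protein uptake fell, of which Rab8b was close to the fold change minimum. Fcgrt, the neonatal Fc receptor at chr7:45092993-45103822, was at 11289.6, 11082, 10218 and 10199 CPM in the P6 mice and at 80.8, 73.2, 87.7 and 85.7 CPM in the P36 mice. The level in each pup was more than 100 times that in any weaned mouse (log2 fold change -7.03, SE 0.40, edgeR adjusted p = 7.15e-10). Mamdc4, which encodes the endosomal protein endotubin of neonatal enterocytes, was at 4936, 4649.9, 5464 and 4213 CPM and 2.47, 1.41, 5.12 and 2.35 CPM (log2 fold change -10.72, SE 0.81, edgeR adjusted p = 2.06e-08). Dab2, the endocytic adaptor, was at 788, 832, 797 and 812 CPM and 0.471, 0.574, 0.988 and 2.35 CPM (log2 fold change -9.53, SE 0.51, edgeR adjusted p = 4.26e-10). Lrp2, the scavenger receptor megalin, fell as well (log2 fold change -7.03, SE 0.57, edgeR adjusted p = 4.22e-08). The partners that bind cargo beside Dab2 were not called, with a log2 fold change of -1.77 for Cubn (SE 0.51, edgeR adjusted p = 0.00791) and -1.15 for Amn (SE 0.46, edgeR adjusted p = 0.0486), both within the fold change minimum. The receptor that carries immunoglobulin in the opposite direction, Pigr, was at 156, 215, 144 and 227 CPM in the P6 mice and 4603, 5194, 4767 and 4225 CPM in the P36 mice (log2 fold change 4.66, SE 0.22, edgeR adjusted p = 1.19e-10). Fcgrt and Pigr thus moved in opposite directions in the same libraries. Of the 27 tested genes for protein uptake and antibody transport, 2 were called higher at P36, Pigr and the brush border lipase gene Plb1, and 5 higher at P6. Rab8b was among the 5 at -2.008, and leaving out P36 mouse 3, P36 mouse 4 or P6 mouse 1 each ended its call. B2m, the light chain partner of Fcgrt, had a log2 fold change of -0.13. Cltc, the clathrin heavy chain, was not called and held 72110 counts over the P6 libraries and 78104 over the P36 libraries, before scaling. Over the list, 20 of the 27 genes had a negative log2 fold change and 7 a positive one, with a median of -0.836. Rab5a and Rab7, of early and late endosomes, had log2 fold changes of -0.189 and -0.852, neither called.

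Lysosomal genes fell as a group. Of the 61 tested, 30 were called higher at P6 and 2 higher at P36, 57 had a lower mean at P36, and the median log2 fold change was -1.89. Their summed expression was between 41188 and 49256 CPM in the P6 libraries and between 5552.7 and 5735.6 CPM in the P36 libraries, so that the P36 mice were nearly alike. Ctsl, the protease cathepsin L, was the highest of the list in each P6 library, with 14706, 10675, 12051 and 8409.9 CPM against 20.01, 12.1, 23.2 and 30.1 CPM at P36 (log2 fold change -9.07, SE 0.40, edgeR adjusted p = 6.68e-11). Lgmn, the protease legumain, was at 3146, 3657, 2495 and 3178 CPM and 36.7, 30.8, 31.2 and 37.0 CPM (log2 fold change -6.52, SE 0.28, edgeR adjusted p = 4.81e-11). Neu1, the sialidase that trims sialic acid from milk glycans and other glycoconjugates, was at 1106, 1129, 996 and 1017 CPM and 53.7, 43.0, 59.0 and 54.1 CPM (log2 fold change -4.34, SE 0.38, edgeR adjusted p = 9.87e-08). P6 and P36 values did not overlap for any of these 3 genes. Hexa, Galc and Tpp1, which break down glycolipids and peptides, fell, with log2 fold changes of -3.04, -3.93 and -3.24. The 2 that rose were Ctsc and Ctsf, at 2.12 and 2.10, and the call of Ctsf was lost without any one of P36 mouse 1 or P6 mice 1, 3 or 4.

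**Figure D3:**
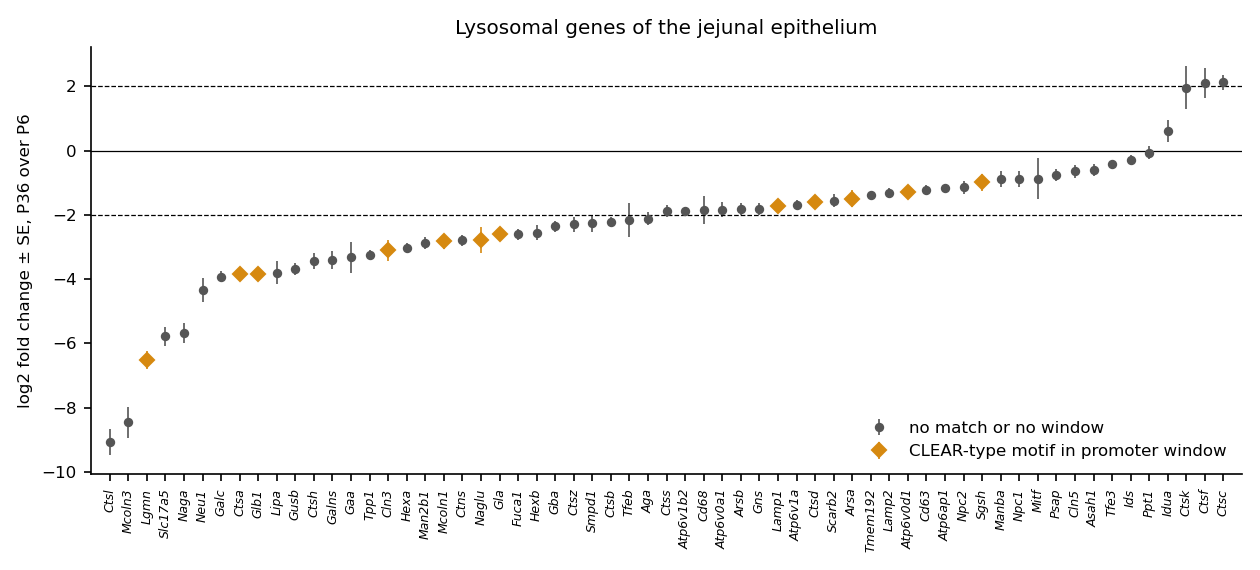
Log2 fold change (P36 over P6, vertical axis) ± SE of the 61 tested lysosomal genes in order of size, with dashed lines at the fold change minimum of 2 in each direction. Diamonds mark the 12 genes with the motif CACGTGAC in the promoter window and circles the others, including those without a window; 57 of the 61 points lie below 0, and all 12 diamonds do.

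Many lysosomal genes are known to carry a CLEAR element, bound by transcription factors of the TFEB family, in their promoters. The letters CACGTGAC were searched on both strands in a window from 250 bases before to 50 bases after the RefSeq start site, which was given for 10219 of the 13429 tested genes. The motif was found for 12 of 49 lysosomal genes (24.5%) and for 4.64% of all 10219 genes. Where a gene had several start sites, a match in any of their windows counted. The 12 genes with it had a median log2 fold change of -2.70, with 7 called higher at P6, and the 37 without it had a median of -1.84, with 16 called higher at P6. Matches in the promoters of 5 of the called genes are printed with 10 bases on each side, on the strand of the gene from 5′ to 3′, because these genes were among those that fell. Sequences are from RefSeq on GRCm38.p6, the motif is in capitals, and GTCACGTG is the same motif on the other strand. A match of letters is a description of the window and not evidence of binding.
Lgmn: tggaatgtctGTCACGTGgtccatttta
Ctsa: tgcagatgctCACGTGACcagagctaca
Glb1: ctgcttctgaGTCACGTGgcctacagag
Mcoln1: gcgccccgctCACGTGACcgcggcgcat
Naglu: caaccttcagGTCACGTGgcccgaggtc
These windows lie at chr12:102439126-102439153 on the minus strand for Lgmn and on the plus strand at chr2:164833768-164833795 for Ctsa, the protective protein of sialidase. The window of Glb1, the lysosomal beta-galactosidase, is at chr9:114401018-114401045, that of Mcoln1, a calcium channel of the lysosome, at chr8:3500464-3500491, and that of Naglu, an enzyme of heparan sulphate breakdown, at chr11:101070009-101070036, all on the plus strand. The 5 genes had log2 fold changes of -6.52, -3.84, -3.83, -2.82 and -2.79. Ctsl and Mcoln3, which had the largest falls of the list, are not among the 12. The factor genes are in the list too: Tfeb fell (log2 fold change -2.16, SE 0.53, edgeR adjusted p = 0.00298). Tfe3 and Mitf had log2 fold changes of -0.42 and -0.87 within the minimum.

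Genes of fat uptake and chylomicron assembly were lower at P36 where they were called, 8 of 28 tested, and none was called higher. Apoa4 was at 78301, 81230.2, 63639 and 77753 CPM in the P6 mice and 4655, 2799, 2668 and 3696 CPM in the P36 mice (log2 fold change -4.45, SE 0.70, edgeR adjusted p = 6.68e-05). Dgat2, which completes triglyceride synthesis, fell from 2588 ± 304 to 199 ± 60.2 CPM (log2 fold change -3.70, SE 0.41, edgeR adjusted p = 1.76e-06). Plin2, which coats lipid droplets, fell from 978 ± 93.2 to 75.9 ± 12.5 CPM (log2 fold change -3.69, SE 0.20, edgeR adjusted p = 3.81e-10). Cd36, a fatty acid receptor, fell by 2.56 on the log2 scale. Other genes of the chylomicron path were lower at P36 but within the minimum. Mttp, the transfer protein that loads lipid onto the particle, had a log2 fold change of -0.79 (edgeR adjusted p = 0.0680) and Apoa1 one of -1.42 (edgeR adjusted p = 0.0227). The apolipoprotein gene Apob was at 14212 ± 2740 and 3936 ± 702 CPM (log2 fold change -1.85, SE 0.51, edgeR adjusted p = 0.00660). Apoc3, a further apolipoprotein gene, fell (log2 fold change -2.81, SE 0.48, edgeR adjusted p = 0.000134).

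Genes of fatty acid oxidation and ketone metabolism mostly had negative log2 fold changes, 22 of 31 tested, with a median of -1.11, although a few were called higher at P36. Oxct1, the enzyme with which tissues other than liver use ketone bodies, was at 6.76, 5.49, 5.78 and 5.602 CPM in the P6 mice and 238, 210.0, 191 and 206 CPM in the P36 mice (log2 fold change 5.16, SE 0.15, edgeR adjusted p = 7.40e-13). The ages did not overlap for Oxct1. Acaa2, an enzyme of fatty acid oxidation, and the thioesterase genes Acot1 and Acot2 fell, with log2 fold changes of -3.12, -5.78 and -4.05. Cpt1a, which admits long-chain fatty acids to mitochondria, had a fold change of -1.99 that lay just inside the minimum (with the mouse as a block in limma-voom, the log2 fold change of Cpt1a was -2.01 and was called). Acadm, for medium chains, had one of 0.72. In all, 3 of 31 tested genes were called higher at P36 and 8 higher at P6, beside 7.86% and 8.59% of all genes. The 3 were Oxct1, Angptl4 and Vnn1, so the calls higher at P36 were near the share of all genes.

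Cholesterol synthesis moved the other way, with 7 of 29 tested genes called higher at P36, none higher at P6, and a median log2 fold change of 1.29. Sqle, which catalyses a rate-limiting step, rose from 13.3 ± 1.29 to 91.3 ± 9.31 CPM. Hmgcs1 had a log2 fold change of 1.61 (SE 0.21, edgeR adjusted p = 7.39e-06). Npc1l1, the transporter for dietary cholesterol, had one of -0.10 (SE 0.40, edgeR adjusted p = 0.851). Among 10 tested bile acid genes, 3 were called in each direction. Fgf15, the ileal hormone that restrains bile acid synthesis in the liver, was at 97.7, 172, 99.1 and 149 CPM in the P6 jejunum and 0.0588, 0.0441, 0.225 and 0.480 CPM in the P36 jejunum (log2 fold change -9.30, SE 1.25, edgeR adjusted p = 1.28e-05). Nr0b2, a repressor in the bile acid response, and Abcb11, a bile salt export pump, fell with it, with log2 fold changes of -7.58 and -6.97. Slc10a2 and Fabp6, for bile acid uptake in the ileum, rose but reached only 1.01 ± 0.475 and 5.63 ± 3.04 CPM at P36.

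Genes of drug metabolism mostly rose. Of 51 tested cytochrome P450 and phase II genes, 32 were called higher at P36 and 2 higher at P6, and the median log2 fold change was 3.09. Cyp2b10 had the largest rise among the genes of at least 50 CPM at P36 whose groups did not overlap, with 0.0872, 0, 0.105 and 0 CPM in the P6 mice and 571, 489, 205 and 418 CPM in the P36 mice. The 4 P6 libraries held 4 counts together, so its fitted fold change depends on the small count that edgeR adds to each library (log2 fold change 12.95, SE 0.86, edgeR adjusted p = 4.89e-09). Cyp3a11, of the family that metabolises many drugs and steroids, was at 1.00, 0.625, 1.26 and 0.766 CPM and 359.7, 231, 123 and 183 CPM (log2 fold change 7.94, SE 0.86, edgeR adjusted p = 1.30e-06). P36 mouse 3 was the lowest and mouse 1 the highest of the weaned mice for both genes, and each lay far above every pup. Gsta1, a glutathione transferase, rose from 12 counts over the P6 libraries to 2877 over the P36 libraries, Mgst2 by 3.30 and the carboxylesterase gene Ces2a by 3.02 on the log2 scale. Gsta2 fell (log2 fold change -2.32, SE 0.48, edgeR adjusted p = 0.000709), and leaving out P36 mouse 3 ended that call. The Cyp2b, Cyp3a, Gsta and Ces genes belong to families of near-identical members, so reads may have been divided among relatives. Among the receptors known to control these genes, Nr1i2 (PXR) had a log2 fold change of -0.33 (edgeR adjusted p = 0.181) and Ahr one of 0.95 (edgeR adjusted p = 6.54e-05), both within the minimum. Other such receptors are not described here. Of 12 tested xenobiotic receptors and efflux pumps, 2 were called higher at P36 and 1 higher at P6. The shares of all genes were 7.86% and 8.59%.

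Fetal growth genes had the lowest median of the 41 lists, -3.65 on the log2 scale, with 12 of 17 tested genes called higher at P6 and none higher at P36. Igf2, the fetal insulin-like growth factor, was at 414, 492, 478 and 506 CPM at P6 and 16.4, 10.9, 19.5 and 19.8 CPM at P36 (log2 fold change -4.82, SE 0.46, edgeR adjusted p = 3.23e-07). H19, the imprinted RNA beside it, was at 217, 253, 203 and 501 CPM and 0.294, 0.0882, 0.359 and 0.107 CPM (log2 fold change -10.40, SE 0.54, edgeR adjusted p = 3.06e-10). Igf2bp3, a fetal RNA-binding protein that binds Igf2 mRNA, was at 146, 132, 145 and 137 CPM and 4.00, 2.21, 3.23 and 1.54 CPM (log2 fold change -5.67, SE 0.29, edgeR adjusted p = 2.79e-10). Pups and weaned mice did not overlap for any of the 3. Cdkn1c, Plagl1 and Grb10, further imprinted regulators of growth, fell, with log2 fold changes of -6.65, -8.61 and -5.69. Lin28b held 3 counts at P6 and 4 at P36 and was not tested.

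Among 39 tested transcription factor genes of the intestine, 5 were called higher at P36 and 3 higher at P6. The shares of all genes were 7.86% and 8.59%. Prdm1, which encodes BLIMP1, a repressor known to hold back the adult programme in the suckling intestine, was at 199, 207, 227 and 182 CPM in the P6 mice and 6.47, 4.41, 6.78 and 8.10 CPM in the P36 mice (log2 fold change -4.98, SE 0.34, edgeR adjusted p = 6.38e-09). Arid3a also fell, with a log2 fold change of -5.56, and Hnf4g, a regulator of enterocyte genes, rose (log2 fold change 2.37, SE 0.25, edgeR adjusted p = 1.08e-06). The intestinal identity factor Cdx2 had 170.5 ± 8.53 and 179 ± 12.4 CPM (log2 fold change 0.073, SE 0.16, edgeR adjusted p = 0.738) and the jejunal factor Gata4 159 ± 4.01 and 182 ± 9.30 CPM (log2 fold change 0.19, SE 0.76, edgeR adjusted p = 0.856). Genes of glucocorticoid response and steroid metabolism were called in both directions, 6 of 24 higher at P36 and 4 higher at P6. The glucocorticoid receptor gene Nr3c1 had a log2 fold change of 0.97, and the steroid enzyme genes Hsd17b6 and Hsd3b3 changed by 8.08 and -4.98. Fkbp5, a common reporter of glucocorticoid action, was called at 2.04, but 3 of the 8 fits that each left out 1 mouse ended the call, as did limma-voom with the mouse as a block, where the log2 fold change of Fkbp5 was 1.91.

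Clock genes differed strongly, in a pattern in which the members moved apart. Nr1d1 (REV-ERB alpha) was at 1.66, 2.14, 1.47 and 2.01 CPM in the P6 mice and 173, 143, 152 and 159.8 CPM in the P36 mice (log2 fold change 6.42, SE 0.39, edgeR adjusted p = 1.45e-09). Per2 was at 159.6, 134, 173 and 132 CPM and 22.6, 26.1, 18.99 and 17.96 CPM (log2 fold change -2.80, SE 0.29, edgeR adjusted p = 7.43e-07). The 4 mice of each age were close together for both genes. Nr1d2 and Dbp rose by 3.70 and 2.49 on the log2 scale. Bhlhe40 fell by 3.13 on the log2 scale. Arntl had a log2 fold change of 1.00 (edgeR adjusted p = 8.86e-06). With 20 tested genes, 4 called in each direction, the list had a median of -0.324. The hour of collection is not given in the sources used here, and its part in these values was not tested.

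Markers of the crypt cell types were not raised evenly. Paneth cell products had 18 of 20 tested genes called higher at P36 and none higher at P6, and the median log2 fold change was 6.23. Lyz1, Paneth cell lysozyme, was at 10.0, 13.1, 7.82 and 6.03 CPM in the P6 mice and 2854, 3082, 3548 and 5725 CPM in the P36 mice (log2 fold change 8.68, SE 0.46, edgeR adjusted p = 3.35e-10). Defa21, an alpha-defensin, was at 0.262, 1.38, 0.473 and 0.910 CPM and 402, 229, 591 and 452 CPM (log2 fold change 9.09, SE 0.63, edgeR adjusted p = 7.48e-09), with reads that near-identical defensin genes may share. Ang4 and Mmp7, a Paneth cell ribonuclease and the protease that activates defensins, rose by 5.10 and 5.05. Of the 2 genes not called, Mptx1 had a log2 fold change of -2.526, the only negative one of the list. The other was Itln1, an intelectin: it was at 782, 7.09, 557 and 4.36 CPM in P6 mice 1 to 4, high in mice 1 and 3 and low in mice 2 and 4, and at 1042, 954, 1495 and 2071 CPM in the P36 mice. Its change was not called over all mice (log2 fold change 2.04, SE 1.35, edgeR adjusted p = 0.225). The log2 fold change of Itln1 was 7.92 and was called without P6 mice 1 and 3, it was 1.05 and was not called without P6 mice 2 and 4, and it was called at 4.45 in limma-voom with the mouse as a block.

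Goblet cell genes had 10 of 21 tested members called higher at P36 and 1 called higher at P6. Muc2, the gel-forming mucin, was at 206, 202, 191 and 175 CPM at P6 and 1226, 1493, 1467 and 1382 CPM at P36 (log2 fold change 2.85, SE 0.30, edgeR adjusted p = 8.44e-07). Zg16, a lectin of the mucus layer, was at 3.32, 37.6, 8.14 and 55.1 CPM in P6 mice 1 to 4 and 3508, 3555, 3469 and 3413 CPM in the P36 mice (log2 fold change 7.07, SE 1.04, edgeR adjusted p = 3.38e-05). The weaned mice were nearly alike for Zg16, whereas pups 2 and 4 lay several times above pups 1 and 3, the reverse of Itln1. The log2 fold change of Zg16 was 6.23 without P6 mice 1 and 3 and 9.25 without P6 mice 2 and 4, and was called in both fits. Tff3, Agr2 and Spink4, secreted with mucus, rose by 2.14, 2.60 and 3.18 on the log2 scale. Clca1 and Fcgbp had log2 fold changes of 1.86 and 1.92, within the minimum. The 1 gene that fell, Muc1, a membrane mucin, had 68 counts over the P6 libraries and 12 over the P36 libraries, and its call was lost without P6 mouse 1. Tuft cell genes had 10 of 15 tested members called higher at P36 and 2 higher at P6. Dclk1, a tuft cell kinase, went from 6 counts in all at P6 to 411 at P36 (log2 fold change 6.06, SE 0.63, edgeR adjusted p = 7.72e-07). Trpm5, the channel of tuft cell taste signalling, went from 11 to 688 (log2 fold change 5.99, SE 0.49, edgeR adjusted p = 5.76e-08). Hpgds, listed for tuft cells because it makes prostaglandin D2, went the other way, from 139 ± 26.1 to 0.978 ± 0.425 CPM (log2 fold change -7.16, SE 0.38, edgeR adjusted p = 3.43e-10). Enteroendocrine genes stood apart from these lists, with 0 of 26 tested genes called higher at P36 by edgeR or by DESeq2 and 1, Insl5, higher at P6, and with 9 of 26 at an unadjusted p below 0.05. Gip, an incretin of the upper intestine, was at 96.2, 65.2, 69.5 and 74.3 CPM and 70.8, 72.1, 82.1 and 92.4 CPM (log2 fold change 0.056, SE 0.28, edgeR adjusted p = 0.885). Chga, a general marker of these cells, had a log2 fold change of 0.33 (edgeR adjusted p = 0.333).

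Stem cell and cycling genes mostly had small fold changes. Lgr5, the marker of crypt base stem cells, was at 22.9, 18.3, 19.9 and 15.2 CPM at P6 and 5.59, 5.69, 5.79 and 3.25 CPM at P36, a log2 fold change of -1.90 within the minimum (SE 0.27, edgeR adjusted p = 2.53e-05). Olfm4 and Axin2 had log2 fold changes of 0.43 and 0.15, neither with an adjusted p below 0.05. Of 21 stem cell and Wnt genes tested, 3 were called higher at P36 and 1 higher at P6, beside 7.86% and 8.59% of all genes. The latter was Ephb2, an ephrin receptor (log2 fold change -2.26, SE 0.34, edgeR adjusted p = 4.08e-05). Cell cycle genes had 1 of 35 called, Ccnd1, yet 33 of 35 had a higher mean at P36, 27 had an adjusted p below 0.05 and the median was 0.947. Mki67, a marker of dividing cells, was at 114, 91.6, 155 and 79.2 CPM and 212, 286, 240.2 and 220.2 CPM. Nuclear-encoded subunits of the respiratory chain gave a like picture of a small and even shift: 59 of 60 were higher at P36 with a median of 0.813, 48 had an adjusted p below 0.05, 49 an unadjusted p below 0.05, and 0 were called by edgeR or by DESeq2. Atp5b, a subunit of the ATP synthase, was at 1485, 1536, 1229 and 1578 CPM at P6 and 2637, 2623, 2511 and 2615 CPM at P36 (log2 fold change 0.83, SE 0.13, edgeR adjusted p = 7.66e-05). Other scalings moved the median of all genes by at most 0.0963 on the log2 scale, and the part of scaling in these shifts was not tested.

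**Figure D4:**
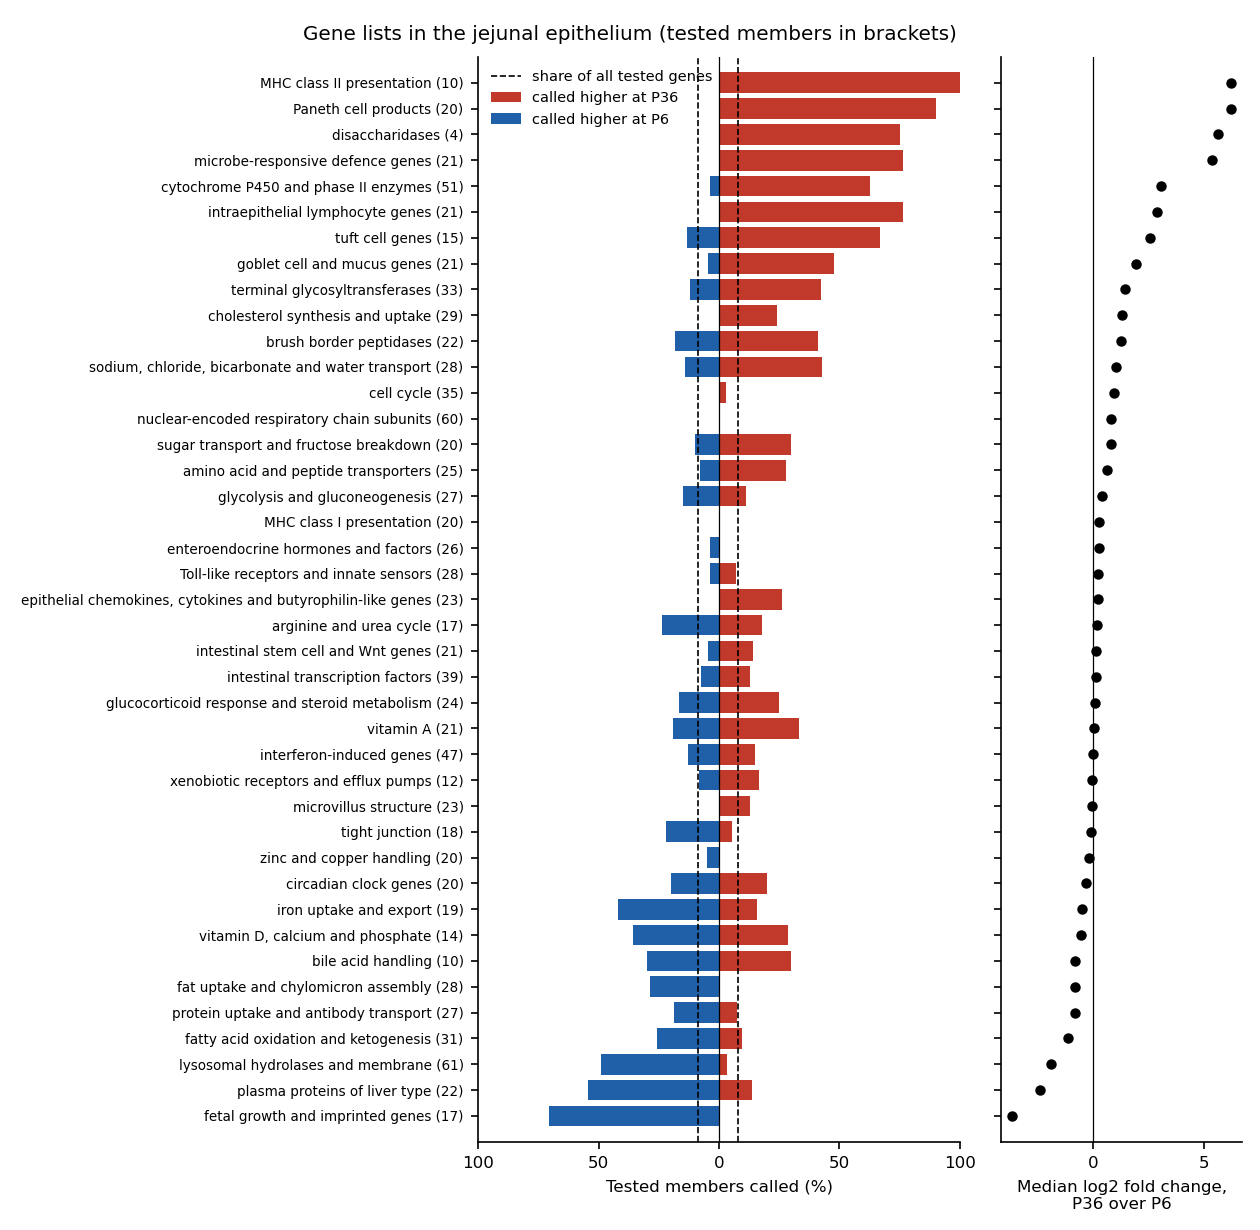
For 41 gene lists with the number of tested members in brackets, the left panel gives the percentage of tested members called higher at P36 (red, to the right) and higher at P6 (blue, to the left), with dashed lines at the shares over all tested genes, 7.86% and 8.59%. The right panel gives the median log2 fold change of the tested members; class II presentation and Paneth cell products share the highest median of 6.23 and fetal growth genes have the lowest at -3.65.

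Antimicrobial genes that respond to microbes gave the largest gain in transcripts. Reg3b, a C-type lectin that binds bacterial walls, lies at chr6:78370885-78373466 and was at 5.24, 2.23, 17.1 and 5.51 CPM in the P6 mice and 29626, 24734, 25610.2 and 31620.5 CPM in the P36 mice (log2 fold change 11.86, SE 1.01, edgeR adjusted p = 7.83e-08). Reg3g, its neighbour with a similar sequence, was at 3.14, 1.78, 8.98 and 6.85 CPM and 12690.4, 10897, 11239.5 and 13863 CPM (log2 fold change 11.20, SE 1.00, edgeR adjusted p = 1.44e-07). Pups differed by several times among themselves at these low levels, and each weaned mouse was above 10000 CPM for both genes. Duox2, which makes hydrogen peroxide at the apical surface, was at 1.22, 0.580, 1.16 and 0.527 CPM and 118, 142, 169.5 and 126 CPM (log2 fold change 7.31, SE 0.50, edgeR adjusted p = 6.59e-09). Fut2, which adds fucose to surface glycans, rose from 2.62 ± 1.23 to 41.9 ± 27.5 CPM. Pla2g5, a secreted phospholipase with 0 counts in the P6 libraries and 1802 in the P36 libraries, was at least 635-fold higher, taking 3 counts over the P6 group as the floor. Of 21 tested genes of this list 16 were called higher at P36 and none higher at P6, and the median log2 fold change was 5.36.

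Class II antigen presentation rose in every listed gene tested, 10 of 10, and the median log2 fold change was 6.23. Cd74, the invariant chain, was at 2.71, 6.11, 2.63 and 4.55 CPM in the P6 mice and 398, 1364, 209 and 159.7 CPM in P36 mice 1 to 4 (log2 fold change 7.05, SE 1.02, edgeR adjusted p = 2.81e-05). H2-Ab1, a class II chain, was at 1.70, 3.75, 1.26 and 3.11 CPM and 152, 391.5, 81.2 and 82.1 CPM (log2 fold change 6.16, SE 0.87, edgeR adjusted p = 2.13e-05). P36 mouse 2 was the highest for both genes and the other 3 weaned mice still lay above all pups. Ciita, the master regulator of class II genes, rose from 0.268 ± 0.0902 to 15.1 ± 12.3 CPM. The summed level of the list was 810, 2633, 432 and 367 CPM in P36 mice 1 to 4. That of the T cell markers was 20.7, 4.28, 30.3 and 5.81 CPM and that of B and plasma cell markers 22.2, 6.18, 82.0 and 41.6 CPM. The mouse highest in class II genes was therefore the lowest in both lymphocyte lists. Of the 11 class II genes listed, 9 were called without P36 mice 1 and 3 and 11 without P36 mice 2 and 4. Class I presentation had 0 calls among 20 tested genes by edgeR or by DESeq2, with 7 at an unadjusted and 6 at an adjusted p below 0.05, and the class I gene H2-K1 was at 891 ± 319 and 1395 ± 233 CPM (log2 fold change 0.65, SE 0.31, edgeR adjusted p = 0.0937).

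Genes of intraepithelial lymphocytes had 16 of 21 tested members called higher at P36, but the weaned mice overlapped the pups for most of them. The 2 ages were apart for 8 of 21, beside 63.8% of all tested genes. Gzma, a granzyme of cytotoxic T cells, was at 1.40, 4.51, 2.10 and 5.12 CPM in the P6 mice and 47.1, 2.69, 59.4 and 3.36 CPM in P36 mice 1 to 4 (log2 fold change 3.10, SE 0.94, edgeR adjusted p = 0.0112). Mice 1 and 3 were high and mice 2 and 4 were at the level of the pups. Cd8a, a T cell coreceptor, was at 0.785, 0.669, 0.578 and 1.29 CPM and 7.00, 0.882, 10.1 and 1.17 CPM (log2 fold change 2.52, SE 0.69, edgeR adjusted p = 0.00647), with the same division. The summed level of the list was between 10.64 and 22.98 CPM at P6 and was 165, 23.2, 237 and 45.7 CPM in P36 mice 1 to 4. Without P36 mice 1 and 3, 6 genes of the list were called and the log2 fold change of Gzma was -0.036, and without P36 mice 2 and 4 they were 20 genes and 4.02. With the mouse as a block in limma-voom, the log2 fold change of Gzma was 2.10 and the log2 fold change of Cd8a was 1.83, neither of them called. Cd8a was also lost without P36 mouse 3 alone. The list holds 6 of the 8 T cell markers, whose sum moved with it, and their part in the result was not tested. B and plasma cell markers were called higher at P36 in 7 of 7 tested, with summed levels between 0.262 and 0.473 CPM at P6. Jchain, the joining chain of IgA, held 1 count in the P6 libraries and 1757 in the P36 libraries.

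**Figure D5:**
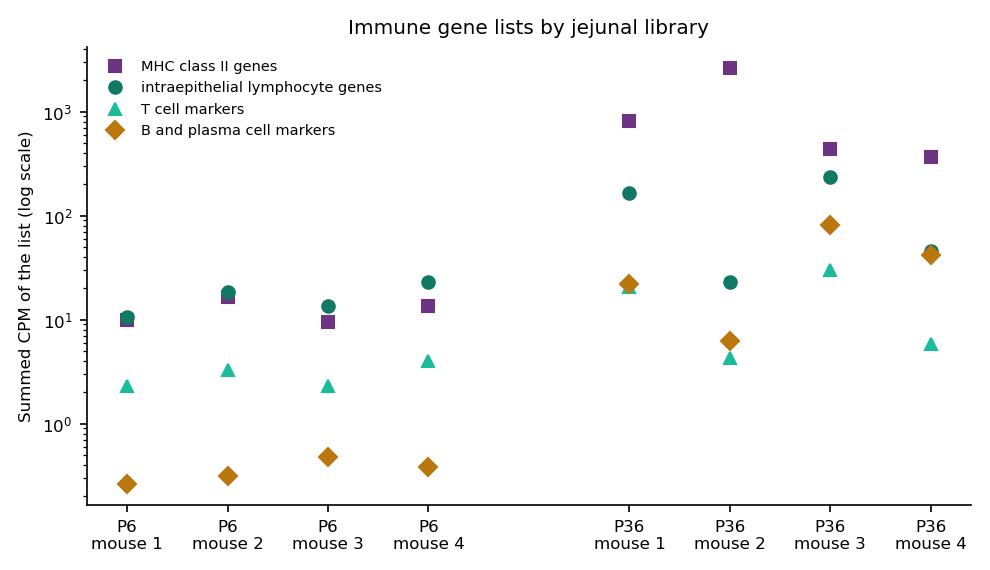
Summed CPM (vertical axis, log scale) of 4 immune gene lists in each of the 8 jejunal libraries, in order of mouse within each age. Class II genes peak in P36 mouse 2 at 2633 CPM, whereas lymphocyte genes and T cell markers are high in P36 mice 1 and 3 and lower in mice 2 and 4, at 23.2 and 45.7 CPM for lymphocyte genes; B and plasma cell markers are above the P6 range in all 4 weaned mice.

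Of 28 tested receptors and sensors of microbes, 2 were called higher at P36 and 1 higher at P6, no more than the shares of all genes (7.86% and 8.59%). Tlr5, the receptor for flagellin, was at 36.6, 36.8, 40.3 and 32.0 CPM in the P6 mice and 0.765, 0.794, 0.988 and 0.586 CPM in the P36 mice (log2 fold change -5.52, SE 0.24, edgeR adjusted p = 7.16e-11). Tlr3, the receptor for double-stranded RNA, was at 2.27, 1.65, 1.57 and 1.34 CPM and 46.4, 61.8, 43.0 and 47.7 CPM (log2 fold change 4.85, SE 0.27, edgeR adjusted p = 5.79e-10). The ages were far apart for both receptors, in opposite directions, and the remaining call was Tlr1, which rose by 5.03 on the log2 scale. Interferon-induced genes were called both ways, 7 of 47 higher at P36 and 6 higher at P6, beside 7.86% and 8.59% of all genes. Ifit1 and Ifit3 fell, with log2 fold changes of -3.06 and -3.40. Ido1, which breaks down tryptophan, went from 2 counts in all to 2894. The Ifit genes are close relatives and may share reads. The chemokines Ccl25 and Ccl28, which attract lymphocytes to the gut, rose, at 117 ± 8.82 to 559 ± 19.4 CPM and 9.14 ± 1.43 to 53.4 ± 2.38 CPM. The cytokine gene Il18 also rose (log2 fold change 3.25, SE 0.27, edgeR adjusted p = 6.20e-08). Of 23 tested genes of this list, 6 were called higher at P36 and none higher at P6.

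At the junctions between cells, claudin genes changed in both directions. Cldn2, which forms a cation and water pore, was at 707, 693, 669.8 and 742 CPM in the P6 mice and 109, 121, 111 and 107 CPM in the P36 mice (log2 fold change -2.65, SE 0.17, edgeR adjusted p = 4.25e-09). Cldn15, another claudin of sodium permeability, was at 72.9, 63.5, 76.9 and 79.6 CPM and 734, 800.0, 734 and 835 CPM (log2 fold change 3.41, SE 0.20, edgeR adjusted p = 8.41e-10). Pups had more Cldn2 and weaned mice more Cldn15 in every library. Cldn4 fell by 2.52 on the log2 scale. Cldn7 had a log2 fold change of 0.47 (edgeR adjusted p = 0.149). Of 18 tight junction genes tested, 1 was called higher at P36 and 4 higher at P6. Microvillus genes had 3 of 23 called higher at P36, beside 7.86% of all genes. Among them were the motor Myo1a, from 318 ± 44.6 to 2451 ± 70.1 CPM (log2 fold change 2.95, SE 0.26, edgeR adjusted p = 1.18e-07), and Cobl. Enzymes that cap glycans with sialic acid, fucose and other sugars were also called in both directions, 14 of 33 called higher at P36 and 4 higher at P6. The sialyltransferase gene St3gal1 was at 801, 742, 816 and 698 CPM and 11.8, 8.69, 11.3 and 15.0 CPM (log2 fold change -6.03, SE 0.22, edgeR adjusted p = 1.203e-11). St3gal3, St3gal5 and St6galnac1 fell, with log2 fold changes of -6.76, -11.11 and -4.23. B4galnt2, which adds N-acetylgalactosamine next to sialic acid, was at 52.0, 79.6, 47.5 and 79.5 CPM and 984, 869.5, 935 and 976 CPM (log2 fold change 3.86, SE 0.23, edgeR adjusted p = 1.67e-09). All 4 that fell were sialyltransferase genes, although the sialyltransferase genes St3gal2 and St6galnac4 were among the 14 that rose, with B3galt5 (log2 fold change 6.93) and Fut8 (4.88).

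Among 19 tested iron genes, 8 fell and 3 rose. Slc40a1, the iron exporter ferroportin, was at 1103, 1457, 1038 and 1484 CPM in the P6 mice and 9.41, 5.16, 20.2 and 17.1 CPM in the P36 mice (log2 fold change -6.62, SE 0.53, edgeR adjusted p = 3.78e-08). Slc11a2, the apical iron importer DMT1, was at 963, 713, 944 and 776 CPM and 83.3, 81.7, 91.3 and 100.5 CPM (log2 fold change -3.25, SE 0.20, edgeR adjusted p = 2.06e-09). Cybrd1, the apical iron reductase, fell by 5.48 on the log2 scale. Mfi2, melanotransferrin, fell from 5363 ± 571 to 1.21 ± 0.828 CPM. These 4 genes were lower in each weaned mouse than in any pup. The 3 that rose were Steap1, Steap3 and Steap4, of a family of metalloreductases, with log2 fold changes of 3.74, 2.63 and 2.66 at means of 4.80, 8.60 and 0.472 CPM at P36. Tfrc, which takes up iron from the blood, had a log2 fold change of 1.80 (SE 0.27, edgeR adjusted p = 4.57e-05). For calcium and phosphate, 4 of 14 tested genes were called higher at P36 and 5 higher at P6. The vitamin D receptor gene Vdr rose from 54.4 ± 11.1 to 448 ± 28.4 CPM (log2 fold change 3.04, SE 0.15, edgeR adjusted p = 2.31e-10). In contrast, S100g, the calcium carrier calbindin-D9k that vitamin D is known to induce, fell from 48.7 ± 4.84 to 2.03 ± 0.512 CPM (log2 fold change -4.57, SE 0.29, edgeR adjusted p = 3.46e-09). The phosphate carrier genes Slc34a2, Slc34a3 and Slc20a1 fell, with log2 fold changes of -2.21, -4.05 and -2.60. The related carrier gene Slc34a1 was called the other way at very low expression, with 3 counts over the P6 libraries and 37 over the P36 libraries (log2 fold change 3.45, SE 0.94, edgeR adjusted p = 0.00598). Among 28 genes for sodium, chloride, bicarbonate and water, 12 were called higher at P36 and 4 higher at P6. Car4, a membrane carbonic anhydrase, rose from 6 counts over the P6 libraries to 22499 over the P36 libraries. Scnn1a, a subunit of the epithelial sodium channel, fell from 114 ± 10.2 to 12.2 ± 0.824 CPM (log2 fold change -3.22, SE 0.15, edgeR adjusted p = 1.05e-10). Zinc and copper genes had 1 of 20 called, Slc39a8 (log2 fold change -3.93, SE 0.28, edgeR adjusted p = 1.13e-08). Vitamin A genes had 7 of 21 called higher at P36 and 4 higher at P6. Lrat, which esterifies retinol, was at 257 ± 82.4 and 28.6 ± 12.9 CPM. Aldh1a1, which makes retinoic acid, was at 59.6 ± 29.5 and 311 ± 133 CPM.

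Plasma proteins usually made in liver were expressed at P6. Of 22 tested, 12 were called higher at P6 and 3 higher at P36, and the median log2 fold change was -2.40, while Alb, the albumin gene, held 0 counts at P6 and 9 at P36 and was not tested. Gpx3, the secreted glutathione peroxidase, is not in that list but had the sixth highest TPM at P6. It lies at chr11:54902854-54910382 and was at 7464, 8697, 8212 and 8648 CPM in the P6 mice and 4.71, 4.41, 7.18 and 9.80 CPM in the P36 mice (log2 fold change -10.30, SE 0.44, edgeR adjusted p = 5.93e-11). F10, coagulation factor X, fell from 175 ± 19.1 to 0.242 ± 0.0764 CPM (log2 fold change -9.49, SE 0.33, edgeR adjusted p = 7.24e-12). Serpina1e, an alpha-1-antitrypsin gene with near-identical relatives, fell from 693 ± 256 to 0.514 ± 0.275 CPM. Among those that rose were the complement genes C3 and C4b, at 2.93 and 3.20 on the log2 scale.

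The 10 largest falls among genes of at least 50 CPM included the listed genes Mfi2, Serpina1a, St3gal5 and Mamdc4. Hyal5 and Smcp, which had the largest falls of the 10 and are best known from sperm, had 18706 and 6691 counts over the P6 libraries and 0 over the P36 libraries, and were at least 5901-fold and 2111-fold lower with 3 counts over the P36 group as the floor. Folr1, a folate receptor, was at 1625, 1435, 1716 and 1264 CPM in the P6 mice and 0.235, 0.0441, 0.763 and 0.320 CPM in the P36 mice (log2 fold change -12.07, SE 0.51, edgeR adjusted p = 4.76e-11). Tdrp was at 999, 1006, 797 and 1039.5 CPM and 0.353, 0.574, 0.135 and 0.426 CPM (log2 fold change -11.31, SE 0.33, edgeR adjusted p = 7.40e-13). Among pups, Folr1 lay between 1264 and 1716 CPM and Tdrp was lower in mouse 3 than in the others. Both genes were close to 0 in each weaned mouse. Among the 10 largest rises, Slc28a3, a nucleoside transporter, had 1 count at P6 and 4623 at P36. Fam151a was at 0.0808 ± 0.104 and 141 ± 29.1 CPM. Gm14851 and AY761184, which resemble defensins, were at 714 ± 254 and 512 ± 92.0 CPM at P36. Csf1r, Ret and Ctrb1, markers of other cell types singled out after their values were seen, were called higher at P6. Csf1r, the receptor of macrophages, was at 461, 498, 415 and 448 CPM in the P6 mice and between 0.838 and 3.55 CPM in the P36 mice, while the macrophage genes C1qa, C1qb and Adgre1 were each below 1 CPM in all pups. Of the other 7 macrophage markers in the files, 1 was called, Lyz2, a lysozyme gene also listed for Paneth cells, which rose from 63 counts over the P6 libraries to 394 over the P36 libraries (log2 fold change 2.71, SE 0.79, edgeR adjusted p = 0.00884). Ret, known from enteric neurons, was between 90.4 and 131 CPM at P6 with Sox10 at 0 counts and the glial gene S100b, which was also called higher at P6, between 7.14 and 18.2 CPM. Ctrb1, a pancreatic protease, was at 239, 89.1, 278 and 109 CPM in P6 mice 1 to 4. Of the other 11 acinar markers, Clps, colipase, rose from 698 counts over the P6 libraries to 3225 over the P36 libraries (log2 fold change 2.32, SE 0.34, edgeR adjusted p = 3.30e-05), and the other 10 held at most 10 counts over the libraries of an age.

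Whether a change with age belonged to the jejunum was asked of the interaction between region and age in the same edgeR fit, taken as the log2 fold change of the jejunum less that of the ileum. The interaction passed an adjusted p of 0.05 for 1167 of 13429 genes (8.69%), 673 of them positive and 494 negative. Without the ileal library of P6 mouse 4 the number was 1912, and the cause was not tested. Of the 2209 jejunal calls, 428 had an interaction and for the other 1781 no difference between the regions was detected at this threshold. An interaction together with no call in the ileum was found for 131 of the genes called higher at P36 and for 104 of those called higher at P6, and 10 genes were called in opposite directions in the 2 regions, all with an interaction. Scd2, a fatty acid desaturase, was at 1.26, 1.11, 0.788 and 1.197 CPM in the P6 jejunum and 277, 176, 95.9 and 173 CPM in the P36 jejunum, and had ileal means of 1083 ± 237 and 742 ± 249.9 CPM (interaction 7.90, SE 0.47, edgeR adjusted p = 5.36e-08). Slc2a2, whose jejunal level was nearly equal at the 2 ages, had ileal means of 42.7 ± 12.6 and 2.37 ± 1.73 CPM (interaction 4.19, SE 0.67, edgeR adjusted p = 0.000900), so that it was called lower with age in the ileum and not in the jejunum. Slc23a1, a vitamin C transporter, had jejunal means of 100 ± 16.3 and 108 ± 24.9 CPM and ileal means of 112 ± 14.6 and 1.53 ± 1.80 CPM (interaction 6.29, SE 0.73, edgeR adjusted p = 5.64e-05). Mgam and Sis rose more in the jejunum (interaction 3.44, SE 0.33, edgeR adjusted p = 8.34e-06 for Mgam and interaction 2.92, SE 0.57, edgeR adjusted p = 0.00424 for Sis), and so did Oxct1 (interaction 3.38, SE 0.18, edgeR adjusted p = 3.40e-08). For falls, Fcgrt (interaction -3.07, SE 0.44, edgeR adjusted p = 0.000396), Slc40a1 (interaction -3.90, SE 0.60, edgeR adjusted p = 0.000763) and Fgf15 (interaction -7.33, SE 1.44, edgeR adjusted p = 0.00431) had the more negative change in the jejunum, whereas the fall of Lgmn had an interaction of 0.013 and that of Mamdc4 one of 0.91, with adjusted p-values of 0.989 and 0.532 in edgeR. The P450 and phase II list had 21 of 51 members with an interaction, the lysosomal list 10 of 61, fatty acid oxidation and ketogenesis 11 of 31, and Paneth cell products 1 of 20.

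The promoters of the called genes were compared by the letters of 6 motifs, as a description. TATAAA was present in a promoter window of 17.4% of the 778 genes called higher at P36 that had a window. It was present for 11.3% of the 873 genes called higher at P6, against 9.18% of all 10219 genes with a window. A gene could have several windows, 12997 in all, and a match in any of them counted. AGATAA, the core bound by GATA factors, was present in 12.1%, 8.36% and 8.22% in the same order, GTTAAT, part of the HNF1 site, in 8.61%, 7.33% and 5.86%, and TTTATG, bound by CDX factors, in 12.3%, 9.16% and 8.23%. TTATGTAA, bound by the clock output factors of the DBP type, was in 0.771%, 0.916% and 0.675%, and CACGTGAC in 1.80%, 5.04% and 4.64%. Among genes called higher at P36, TATAAA was thus more frequent and CACGTGAC less frequent than among all genes. TTTATG and TTATGTAA can overlap, and neither base composition nor the number of windows per gene was matched between the sets.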

How the data were processed

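RNA was sequenced from jejunal epithelium of 4 P6 and 4 P36 mice, beside the ileum of the same mice. The deposited files hold raw counts per gene, which the authors made with Trimmomatic 0.38, STAR and featureCounts 1.6.3 (reverse strand, exons summed by gene, UCSC mm10 genes); the labels give STAR 2.5.3. All 16 libraries were fitted together in edgeR 4.0.16 (R 4.3.3) with TMM scaling, edgeR's filter on low counts, 1 mean per age and region, 1 spread per gene shared by the 4 groups, and the quasi-likelihood F test; p-values were adjusted by Benjamini-Hochberg over 13429 genes. A call needed an adjusted p below 0.05 and a log2 fold change beyond 2. CPM values are TMM-scaled, and SE is the log2 fold change divided by the square root of F. On simulated data with 200 genes changed by 3 on the log2 scale, 184 were recovered with 2 false calls for age and 169 with 7 for the interaction, over 13239 genes. The simulated libraries were independent, with no deviation shared within a mouse or a title code, so these numbers need not hold for the real data.

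Jejunum and ileum of one mouse deviated together (r from 0.157 to 0.391 over 8 mice), so a fit with the mouse as a block (limma 3.58.1, voom) was an alternative, beside DESeq2 1.42.0, other scalings and filters, sex as a covariate, the 8 jejunal libraries alone and leaving out each mouse; leaving out pairs of mice was added after the data were seen. Named genes were the 10 largest changes per direction with separate groups and a mean of at least 50 CPM, the 8 most abundant genes per age, fixed members of 41 lists with up to 3 further called members per direction, and the 8 largest interactions per direction. Members and lists were chosen with earlier results of these data known. Floors of 3 counts cover counting error only, whereas SD and SE include differences between mice. Results of a few genes are not reported here.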

Additional observations from a re-analysis of the deposited data

Results flagged for a closer look

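In 4 of the 118 groups of 4 mice whose values are printed, 1 mouse lay far from the other 3 by Dixon's test at the 95% level, and chance gives about 1 in 20. H19 was 501 CPM in P6 mouse 4, Lgr5 3.25 CPM in P36 mouse 4, Nos2 243 CPM in P36 mouse 3 and Tdrp 797 CPM in P6 mouse 3.

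The interactions named by rule were the largest differences in the change with age between jejunum and ileum among genes of at least 50 CPM in a group, each with an edgeR adjusted p below 0.05. Positive values, a larger log2 fold change in the jejunum, were 12.15 for Rarres1, 9.76 for Afp, 8.54 for Il18r1, 8.11 for Gm766, 7.90 for Scd2, 6.62 for Slc28a1, 6.46 for Gpr151 and 6.29 for Slc23a1. A positive value can come from a fall in the ileum and need not be a rise in the jejunum. Afp, for example, was not called in the jejunum, with a log2 fold change of -0.474. Negative values were -7.33 for Fgf15, -6.80 for Serpina1a, -6.00 for Mfsd2a, -5.32 for Tubb2a, -4.77 for Abhd3, -4.62 for Ifit2, -4.29 for Fam13a and -4.20 for Gpt. Il18r1, a subunit of the interleukin-18 receptor, had jejunal means of 0.339 ± 0.239 CPM at P6 and 0.916 ± 0.504 CPM at P36 and ileal means of 99.7 ± 23.3 and 0.719 ± 0.237 CPM. Mfsd2a, a transporter of lysophospholipids, had jejunal means of 603 and 48.3 CPM and ileal means of 3.30 ± 3.10 and 17.1 ± 4.60 CPM. Ifit2 and Serpina1a have close relatives, so their counts may include shared reads.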

How the results depend on the processing

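The number of genes called with age in the jejunum was 2209 and lay between 1748 (mean CPM of at least 1) and 2627 (no filter on low counts) over other scalings, filters and tools, with 2230 in DESeq2 and 1905 in the 8 jejunal libraries alone, and with no gene called in opposite directions. Without a fold change minimum it was 6927 (3312 higher at P36 and 3615 higher at P6), and with a log2 fold change above 1 it was 4247 (1964 and 2283), because the call is looser. Leaving out 1 jejunal library gave 2221 to 2299 calls, 1045 to 1114 higher at P36 and 1168 to 1221 higher at P6. In limma-voom with the mouse as a replicate block, 2136 genes were called, 1003 and 1133 by direction. Genes whose change with age differs between jejunum and ileum numbered 1167, with 1294 under a replicate block in edgeR, 1713 in DESeq2, and 835 to 1912 when 1 library was left out, the highest without P6 ileum replicate 4. The cause was not tested. Leaving out pairs of mice gave 2133 to 2283 calls. Of named fold changes, 7273 values under alternatives kept direction and side of the threshold, 85 lost the call, 25 gained it and 1 reversed: the log2 fold change of Gzma was -0.036 (edgeR adjusted p = 0.981) without P36 mice 1 and 3. Groups of 4 mice and counts below 3 per group limit what can be told apart for genes of low expression.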

Other observations

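P6 mice of different title codes differed in single genes by large amounts. Phgdh, the first enzyme of serine synthesis, was at 356, 41.6, 394 and 28.5 CPM in P6 mice 1 to 4, and Pm20d1, which makes N-acyl amino acids, was at 308, 23.1, 272 and 21.7 CPM. Slc38a3 followed the same division, with 155, 25.1, 159 and 19.9 CPM. Gm8615 was at 480.0, 1.07, 429 and 1.25 CPM in the jejunum and at 360, 1.77, 344 and 5.79 CPM in the ileum of the same pups, and Itln1 was at 620, 10.3, 435 and 8.09 CPM in the ileum, with the same division in both regions. Zg16 was divided the other way in the ileum, at 8.94, 0.991, 19.8 and 0.932 CPM, and Mptx2, at 27.1, 0.402, 26.3 and 16.4 CPM in the jejunum, was at 46.1, 2.71, 41.1 and 122.8 CPM in the ileum, with the highest value in mouse 4. In the weaned jejunum, Eno1b was at 44.2, 0.750, 48.6 and 45.5 CPM and Gm10104 at 1.41, 38.4, 2.11 and 85.7 CPM in mice 1 to 4. The genes in this paragraph were named for their spread between mice, by rule or after their values were seen.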
